A study of Mytilus coruscus with 2 samples.

Results

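The Nrf2 ChIP-seq peaks described here are those whose nearest gene had no match in any of 4 protein databases (Swiss-Prot, KEGG, TrEMBL and InterPro). They were chosen from the authors' peak table as the rows in which all 4 database columns were empty, so neither peak height nor position took part in the choice. There were 384 such peaks of 3465 in all, and their nearest genes were 297 of the 2548 genes named in the table. Throughout, these are called unmatched peaks and unmatched genes. The 3081 peaks near the 2251 genes with at least 1 match are called matched. The material was fixed and digested chromatin from digestive gland cells of the mussel *Mytilus coruscus*, as 1 library made with a custom antibody against Nrf2 and 1 input library, a part of the cut chromatin set aside before that step. The labels give no treatment, age or genotype, the mussels were bought at a market and kept in a tank, and the number of animals behind a library is not stated. There were no replicates, so no value below has a replicate error, no test between groups was run, and a difference between peak groups describes this pair of libraries only.

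Nrf2 is a basic leucine zipper transcription factor that, in vertebrates, pairs with small Maf proteins and binds antioxidant response elements in the DNA of detoxification and antioxidant genes. In unstressed vertebrate cells Keap1 holds it in the cytoplasm and directs its degradation, and oxidants or electrophiles release it. The digestive gland is the main organ of digestion and detoxification in bivalves. In genome annotation generally, a gene model can lack a database match because its protein has diverged or belongs to one lineage, or because the model is short or incomplete, and which of these holds for the genes here was not tested. The unmatched genes therefore have no name beyond their number, in which the chromosome comes first and the order along it second. Among 3444 steps from one peak to the next along a chromosome, this gene number stayed or rose in 3432.

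Unmatched peaks lay between genes far more often than matched peaks, and in introns far less often. Of the 384 unmatched peaks, 248 were intergenic, which is 64.6% (Wilson 95% interval 59.7% to 69.2%), against 37.5% (35.8% to 39.2%) of matched peaks. Introns held 72 unmatched peaks, or 18.8% (15.2% to 23.0%), against 48.2% (46.4% to 49.9%) of matched peaks. The difference in intron share was -29.4 percentage points (Newcombe 95% interval -33.4 to -24.9), and that in intergenic share was 27.1 points (21.9 to 32.0). These intervals cover counting error only and take each peak as a unit, although peaks of 1 gene are not independent. With only the peak of highest pileup kept for each gene, the intergenic shares were 61.3% and 36.3% and the intron shares 20.2% and 48.3%, so the gap was also there without the genes' further peaks. Among peaks outside introns, 79.5% (74.7% to 83.6%) of the unmatched and 72.3% (70.0% to 74.4%) of the matched were intergenic, a difference of 7.23 points (1.95 to 11.9).

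The smaller classes differed less in percentage points. Exons held 11 unmatched peaks, 2.86% (1.61% to 5.06%), against 5.55% of matched peaks, a difference of -2.69 points (-4.21 to -0.37). The class named downstream in the table took 17 unmatched peaks, 4.43% (2.78% to 6.97%), against 1.85% of matched peaks, a difference of 2.58 points (0.85 to 5.16). The 3 promoter classes, which reach 3 kb upstream of the transcription start site (TSS), held 36 unmatched peaks, 9.38% (6.85% to 12.7%), against 6.98% (6.13% to 7.93%), and here the interval of the difference included 0 (2.40 points, -0.30 to 5.83). Within the promoter, 16 unmatched peaks were in the class nearest to the TSS, 8 in the next and 12 in the farthest. The class nearest to the TSS, promoter(1k), held 4.17% of unmatched and 2.21% of matched peaks, a difference of 1.96 points (0.27 to 4.50).

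The matched peaks were not uniform, and the intron and intergenic shares changed step by step with the number of databases that matched the nearest gene. The intron share was 18.8% with 0 databases, 20.2% (16.2% to 24.8%) with 1, 25.5% (21.2% to 30.4%) with 2, 36.9% (32.1% to 42.0%) with 3 and 58.5% (56.3% to 60.6%) with all 4. The intergenic share fell over the same groups from 64.6% to 63.3%, 48.7%, 47.4% and 29.6%. The unmatched peaks thus stood at the end of an order that ran through the whole table, and in both shares their intervals overlapped those of the 332 peaks whose gene matched a single database. Of these 332 peaks, 268 had a match in TrEMBL alone, and for 227 of the 268 that match was itself named an uncharacterized protein. Exon shares followed no such order, with 2.86%, 3.61%, 9.97%, 7.99% and 4.69%. The promoter(1k) shares were 4.17%, 2.71%, 5.28%, 2.20% and 1.61%. The downstream shares were 4.43%, 2.71%, 5.28%, 1.65% and 1.17%, so both were highest with 2 databases and not at unmatched peaks. The 3 promoter classes together held 9.38%, 10.2%, 10.6%, 6.06% and 6.01%.

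**Figure D1:**
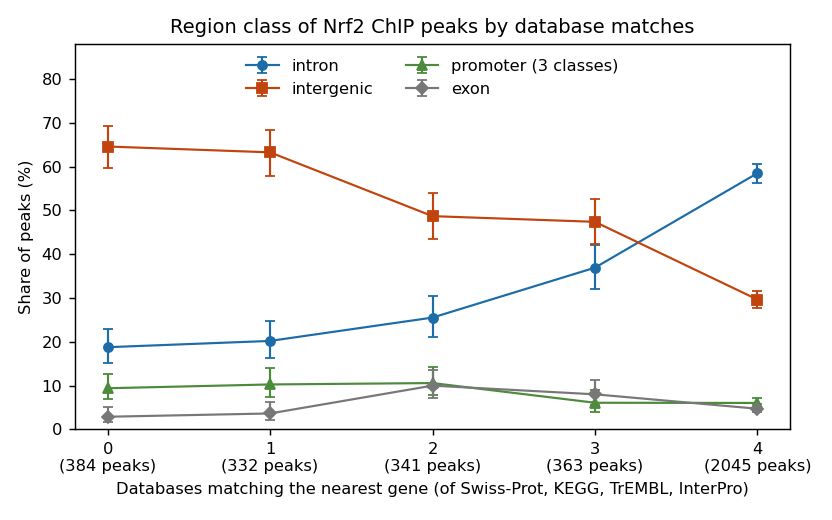
Share of peaks in percent (vertical axis) in introns, intergenic regions, the 3 promoter classes together and exons, against the number of databases that matched the nearest gene (horizontal axis). Points are shares and bars are Wilson 95% intervals; the intron share rises from 18.8% at 0 databases to 58.5% at 4, while the intergenic share falls from 64.6% to 29.6%.

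Distance to the TSS separated unmatched from matched peaks on the gene side of the TSS and little on the upstream side. Inside introns, the median distance was 9249 bp (95% interval of the median from order statistics, 6571 to 12925 bp) for the 72 unmatched peaks and 19598 bp (18511 to 21088 bp) for the 1484 matched peaks. This was not particular to unmatched genes, since the 67 intron peaks of genes that matched 1 database had a median of 8885 bp (6492 to 10270 bp). With 2, 3 and 4 databases the intron medians were 14984, 22175 and 20879.5 bp. Past the gene end, the median distance of intergenic peaks was 14795 bp (12282 to 22103 bp, n = 107) against 23177 bp (20788 to 26117 bp, n = 468), with intervals that overlapped in part. Upstream of the TSS, the median distance of intergenic peaks was 15056 bp (12628 to 18799 bp, n = 141) against 13492 bp (12404 to 14819 bp, n = 686), with the unmatched peaks slightly farther away. In the downstream class the median was 4549 bp (3419 to 7769 bp, n = 17) against 11929 bp (6257 to 17829 bp, n = 57).

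Long distances inside introns were rarer at unmatched genes and at genes with 1 matching database than over all matched intron peaks together. This share was not counted separately for genes with 2, 3 or 4 matching databases. Of the 72 unmatched intron peaks 4, or 5.56% (2.18% to 13.4%), lay 30 kb or more from the TSS, against 33.8% of the 1484 matched intron peaks, a difference of -28.2 points (-32.4 to -19.98). With 1 database the share was 8 of 67, or 11.9% (6.18% to 21.8%), and its interval overlapped that of the unmatched peaks. The 4 unmatched peaks belonged to 2 genes, M.coruscus_chr13_1807 with 3 peaks between 42530 and 46724 bp and M.coruscus_chr5_0906 with 1 peak at 42293 bp. No unmatched intron peak lay 100 kb or more from the TSS, which with 0 of 72 peaks allows a share of up to 4.17% by a limit of 3 counts and up to 5.07% by the Wilson interval. The matched share, 4.72%, lay between these limits, so a difference at this distance was not detectable with 72 peaks. The farthest unmatched peak of all was intergenic, 167945 bp upstream of M.coruscus_chr1_1332, a gene named here after its value was seen. Over all classes the median distance was 11598.5 bp for unmatched and 16105 bp for matched peaks, and 11638 bp with 1 database, a value that depends on the mix of classes.

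**Figure D2:**
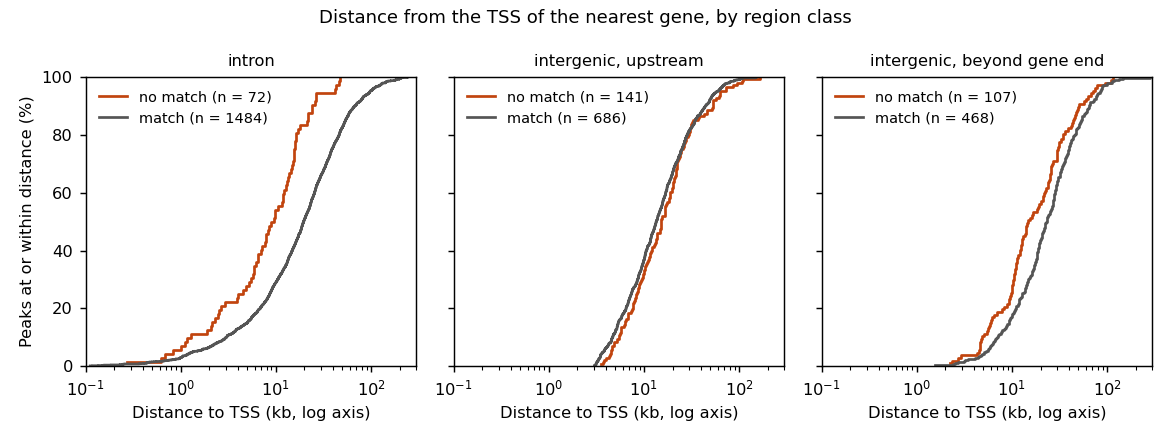
Cumulative share of peaks in percent (vertical axis) at or within a given distance from the TSS of the nearest gene (horizontal axis, kb, log scale), for intron peaks, intergenic peaks upstream of the gene and intergenic peaks beyond the gene end. The curve of unmatched peaks lies left of that of matched peaks in introns (medians 9249 and 19598 bp) and beyond the gene end, and close to it upstream (medians 15056 and 13492 bp).

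The side of the TSS followed the mix of classes. Of all unmatched peaks 175, or 45.6% (40.7% to 50.6%), lay upstream of the TSS, against 29.0% of matched peaks. Among intergenic peaks alone the shares were 56.9% (50.6% to 62.9%) and 59.4% (56.6% to 62.2%), and the difference of -2.59 points had an interval of -9.41 to 4.07. The overall gap therefore appeared with the lower intron share and was not seen within the intergenic class.

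Peak length and strength were nearly alike in both groups. The median length was 305 bp (286 to 341 bp) for unmatched and 312 bp (305 to 321 bp) for matched peaks, and 2.34% of each group reached 1000 bp. The pileup, which is the number of ChIP fragments over the summit, had a median of 17 (16 to 18) against 16 (15 to 16). The fold enrichment, which sets this pileup against a local background from the input that cannot go below a floor common to the table, had a median of 4.52 (4.36 to 4.63) against 4.68 (4.60 to 4.73). A fold enrichment of at least 10 was reached by 10 unmatched peaks, 2.60% of them, where the share over all 3465 peaks was 2.48%. A fold of at least 6 was reached by 63, or 16.4%, where it was 20.0% over all peaks, and the difference from matched peaks was -4.07 points (-7.75 to 0.19). A −log10 q of at least 3, the peak caller's measure of confidence, was reached by 289, or 75.3%, where it was 74.2% over all peaks. By class, the medians of unmatched and matched peaks were 4.82 and 4.84 in introns, 4.43 (4.13 to 4.61) and 4.53 (4.43 to 4.67) between genes, and 4.405 (3.54 to 5.14) and 4.57 (4.39 to 4.83) in promoters. They were 4.43 and 4.78 in the downstream class and 4.81 and 4.56 in exons, and in each of these 5 classes the intervals overlapped.

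A larger share of unmatched than of matched peaks lay over a high background. Background was computed for each peak as pileup plus 1 divided by fold enrichment, which is the peak caller's local background plus 1, in fragments. Its median was 3.67 (3.21 to 3.67) for unmatched and 3.21 (3.04 to 3.42) for matched peaks, intervals that overlapped, and its upper quartile was 7.23 against 5.45. Between genes the median was 3.67 in both groups, with upper quartiles of 8.12 and 6.34. In introns the medians were 3.25 (2.79 to 3.89) and 3.04 (2.87 to 3.25). They were 3.67 and 3.21 in promoters, 2.78 and 2.87 in exons, and 2.87 and 3.55 in the downstream class. Of unmatched peaks, 56 were among the 10% of all peaks with the highest background, 14.6% (11.4% to 18.5%) against 9.41% of matched peaks, a difference of 5.17 points (1.81 to 9.17). Counted by gene, 38 of 297 unmatched genes, 12.8% (9.47% to 17.1%), had such a peak against 9.24% of matched genes, and the interval of that difference reached 0 (3.55 points, -0.01 to 7.98). At the other end, 22.4% of unmatched and 24.8% of matched peaks sat within 0.001 of the lowest background of the table, 2.48. At these peaks the fold enrichment is set by the pileup alone.

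**Figure D3:**
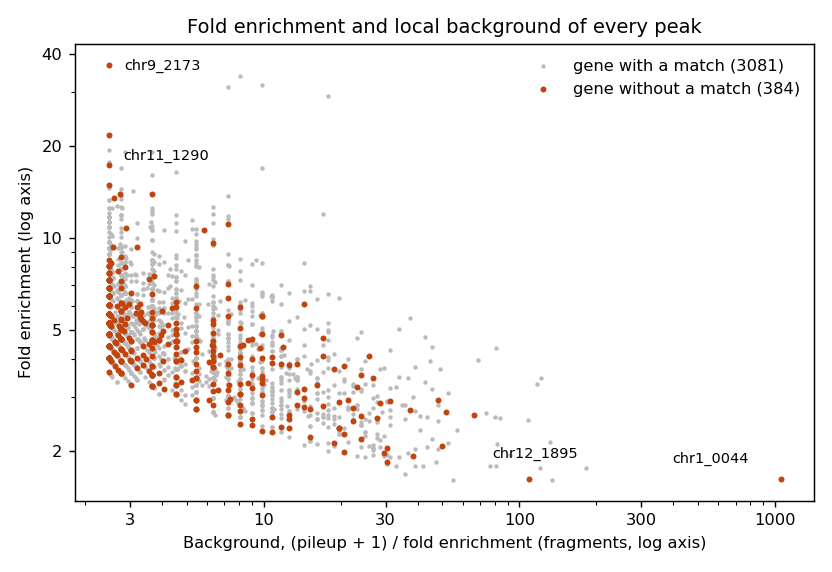
Fold enrichment (vertical axis, log scale) against background in fragments (horizontal axis, log scale) for every peak, with unmatched peaks in orange over matched peaks in grey. Unmatched peaks hold both the highest fold enrichment and the highest background of the table, the peak near chr9_2173 at 36.8-fold over a background of 2.497 and the peak near chr1_0044 at 1.63-fold over a background of 1053.

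The highest fold enrichment of the whole table belonged to an unmatched peak. It lay between genes on chromosome 9, 93683075 to 93684311 on the authors' genome, 13906 bp from the TSS of M.coruscus_chr9_2173, with a pileup of 91 fragments over a background of 2.497 and a 36.8-fold enrichment. A second peak of the same gene, 93684517 to 93685009, began 205 bp further on, with 53 fragments over a background of 2.48 and a 21.8-fold enrichment, the sixth highest of the table. Both distances place the TSS of this gene at 93698018 on the minus strand, so the pair lay beyond the gene end. No other unmatched peak came within 4 fold units of the second.

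The next peaks by fold enrichment were in introns. In M.coruscus_chr11_1290 a peak on chromosome 11, 50270094 to 50270479, lay 6571 bp from the TSS with 42 fragments, a background of 2.48 and a 17.3-fold enrichment, and the nearest other peak was 830826 bp away. In M.coruscus_chr5_1229 a peak on chromosome 5, 52584947 to 52585345, lay 24067 bp from the TSS with 36 fragments, the same background of 2.48 and a 14.9-fold enrichment. These strong peaks stood over a background at or near the lowest of the table. An intergenic peak 43302 bp from the TSS of M.coruscus_chr3_3369, on the gene side, followed with 37 fragments and 13.9-fold, and an intron peak of M.coruscus_chr7_1361 had 61 fragments over a higher background of 5.87 and 10.6-fold.

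Of the unmatched genes nearest to 3 or more peaks, M.coruscus_chr4_0253 carried the strongest group. Its 5 peaks lay within 10615 bp on chromosome 4, 10015929 to 10026543, all upstream of a TSS at 10014930 on the minus strand. From the TSS outward they were 1101, 4023, 6194, 8581 and 11192 bp away, the first in the promoter(2k) class and the others intergenic. Their fold enrichments in that order were 7.26, 11.1, 9.62, 7.66 and 13.9, and their pileups were 17, 79, 60, 18 and 50 fragments. All 5 were above the upper quartile of unmatched peaks, 5.41-fold, and their background ran from 2.48 to 7.23. Among the 21 unmatched genes nearest to 3 or more peaks, this gene had the highest median fold enrichment, 9.62.

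Other unmatched genes with many peaks had low fold enrichment over high background. M.coruscus_chr1_0044 was nearest to 6 intergenic peaks spread over 73466 bp of chromosome 1. They included the highest pileup of the whole table, 1712 fragments at 2512771 to 2513127, 10146 bp past the TSS. The background there was 1053, also the highest of the table, and the fold enrichment was 1.63, so input and ChIP were both high at this place. The other 5 peaks of the gene, 12043 to 62866 bp upstream, had 51 to 92 fragments and 2.77-fold to 4.37-fold. The next gene by number, M.coruscus_chr1_0045, looked up after these values were seen, was also unmatched and had 1 peak of 55 fragments and 4.80-fold, 19551 bp further on.

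M.coruscus_chr9_0063 was nearest to 5 intergenic peaks, 6364 to 25870 bp upstream, with 52 to 138 fragments, backgrounds of 16.1 to 51.7 and a median fold enrichment of 2.94. They included the longest unmatched peaks, 1678 bp and 1426 bp. The 2 genes that follow were named after their values were seen. M.coruscus_chr7_1535 had 4 peaks within 2568 bp, 18302 to 20463 bp upstream, with a median of 2.61-fold over a median background of 13.0. M.coruscus_chr3_3288 had 3 peaks of 1.99-fold to 3.79-fold. In these 4 genes of the 21 with 3 or more peaks, the median background was among the highest 10% of all peaks.

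Peaks over high background were also found at unmatched genes with fewer than 3 peaks. At M.coruscus_chr12_1895 on chromosome 12, 85160963 to 85161242, 175 fragments over a background of 109 gave 1.62-fold. In an intron of M.coruscus_chr5_0906 on chromosome 5, 37071038 to 37071246, 174 fragments over a background of 66.3 gave 2.64-fold. Both were among the 5 unmatched peaks with the highest pileup. The peak 5163 bp upstream of M.coruscus_chr4_1905 was 1295 bp long, with 141 fragments and 2.95-fold, and the peak 46206 bp upstream of M.coruscus_chr6_2437 had 103 fragments and 2.08-fold.

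**Figure D4:**
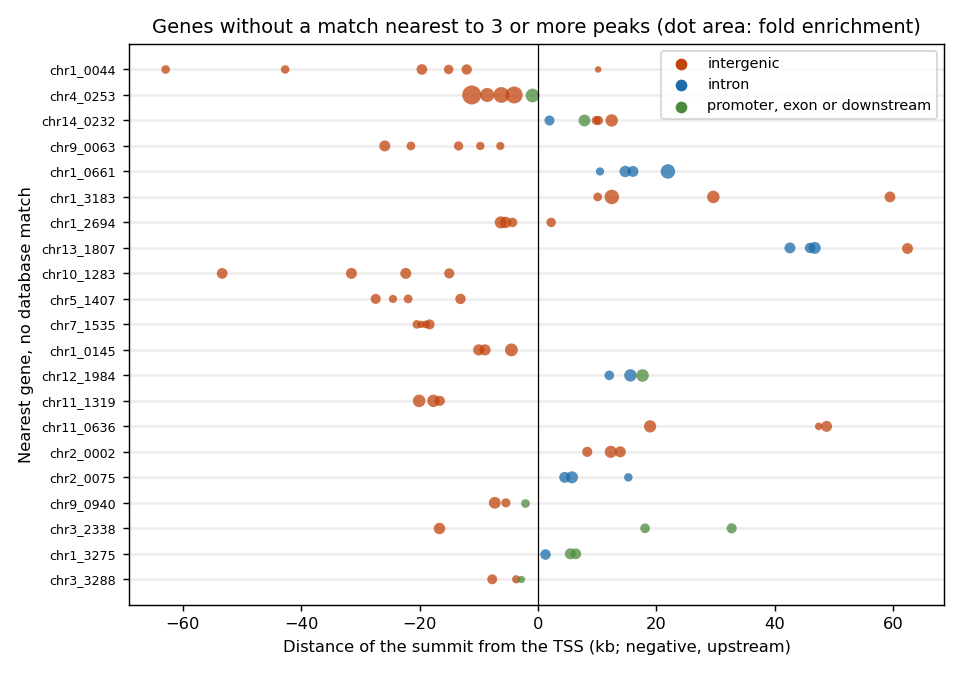
Position of each peak in kb from the TSS (horizontal axis, negative values upstream) for the 21 unmatched genes nearest to 3 or more peaks (vertical axis, with the prefix of the gene number left out). Dot area is proportional to fold enrichment and colour gives the region class; the 5 peaks of chr4_0253, all upstream and between 7.26-fold and 13.9-fold, include the largest dots, and those of chr9_0063 and chr7_1535 are small, with medians of 2.94-fold and 2.61-fold.

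The remaining genes with several peaks showed groups on 1 side of the TSS in most cases. Of the 21 genes, 9 had all peaks upstream and 9 had all peaks downstream of the TSS. All peaks were intergenic in 11 genes and in introns in 2, M.coruscus_chr1_0661 with 4 peaks of 2.63-fold to 8.06-fold and M.coruscus_chr2_0075, which falls outside the rule for named genes, with 3 peaks of 2.75-fold to 5.56-fold. M.coruscus_chr14_0232 had 1 intron peak, 1 downstream peak and 3 intergenic peaks beyond its end, from 1901 to 12436 bp past the TSS. M.coruscus_chr10_1283 had 4 peaks of nearly equal strength, 3.98-fold to 4.63-fold, spread from 14991 to 53323 bp upstream. M.coruscus_chr1_3183 had 4 intergenic peaks past its end, 10073 to 59416 bp from the TSS, of 2.94-fold to 8.06-fold. M.coruscus_chr5_1407 had 4 upstream peaks of 2.55-fold to 4.13-fold, and the 4 peaks of M.coruscus_chr1_2694 and of M.coruscus_chr13_1807 were 3.43-fold to 5.66-fold and 4.17-fold to 5.49-fold. Repeated peaks were somewhat less common at unmatched genes, where 50 of 297 genes, 16.8% (13.0% to 21.5%), were nearest to more than 1 peak against 22.5% (20.8% to 24.2%) of matched genes, a difference of -5.64 points (-9.86 to -0.68). The size of this gap varied with the peaks kept, as the section on processing describes. For genes with 3 or more peaks the shares were 7.07% and 7.69%, and these 21 unmatched genes held 79 of the 384 peaks.

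Peaks of the promoter(1k) class lie near the TSS by definition. The median distance of unmatched peaks in this class was 218 bp (93 to 663 bp, n = 16), against 504.5 bp (343 to 639 bp, n = 68) in matched peaks, and the intervals overlapped. Within 300 bp of the TSS lay 11 of the 16, against 18 of the 68, with genes that matched 1 database not counted separately. The strongest was at M.coruscus_chr10_0061 on chromosome 10, 2644885 to 2645087, with its summit 93 bp past the TSS, 20 fragments and an 8.30-fold enrichment. It was followed by peaks 663 bp upstream of M.coruscus_chr1_2533 (5.64-fold), 68 bp upstream of M.coruscus_chr5_1985 (5.53-fold) and 205 bp upstream of M.coruscus_chr11_2588 (5.24-fold), each with 12 or 13 fragments. Peaks 210 bp upstream of M.coruscus_chr4_2387 and 70 bp upstream of M.coruscus_chr5_0751 had 5.14-fold and 4.91-fold. Most of these values rest on few fragments, and 5 of the 6 peaks were 240 bp long or shorter.

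Farther up the promoter the strongest unmatched peak lay 2781 bp upstream of M.coruscus_chr11_2397, with 30 fragments and a 10.7-fold enrichment. The peak 2679 bp upstream of M.coruscus_chr4_1856 was 1187 bp long, with 50 fragments and 7.06-fold, and it was the longest unmatched promoter peak. In the promoter(3k) class the median background of unmatched peaks was 5.00 (2.89 to 15.2, n = 12) against 2.83 (2.78 to 3.67, n = 68) for matched peaks. In promoter(1k) the medians were 3.67 and 2.78. The order was reversed in promoter(2k), with 2.497 for unmatched and 3.67 for matched peaks. Within each promoter class the intervals of both groups overlapped, so no difference in background was resolved there.

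Of the 11 exon peaks of unmatched genes, 5 lay within 300 bp of the TSS, against 13 of the 171 matched exon peaks. The median distances were 2682 bp (130 to 22607 bp) and 7523 bp (4411 to 10410 bp), intervals that overlapped. Genes that matched 1 database were not counted separately here. One of the 5 peaks, at M.coruscus_chr7_2776, lay 275 bp past the TSS with 37 fragments and 6.97-fold, and another, at M.coruscus_chr8_1035, lay 130 bp past it with 15 fragments and 5.76-fold. The strongest exon peak was farther in, 9473 bp past the TSS of M.coruscus_chr5_0732, with 29 fragments and 9.34-fold. In the downstream class the strongest was 4197 bp past the TSS of M.coruscus_chr11_0603, with 34 fragments, a background of 2.60 and a 13.5-fold enrichment, and it was followed by peaks of M.coruscus_chr12_1984 (6.10-fold) and M.coruscus_chr12_1399 (6.05-fold).

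Unmatched peaks were found on all 14 chromosomes in unequal shares. On chromosome 10 they were 10 of 207 peaks, 4.83% (2.64% to 8.66%), and on chromosome 13 they were 28 of 168, 16.7% (11.8% to 23.0%). Chromosome 1, with 64 of 412 peaks or 15.5% (12.4% to 19.3%), held the largest number. Counted by gene, the same chromosomes stood at the ends, with 7 of 167 nearest genes unmatched on chromosome 10 and 24 of 128 on chromosome 13. How many genes without a match each chromosome holds in all was not used here, so a share of peaks cannot be told apart from a share of genes.

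**Figure D5:**
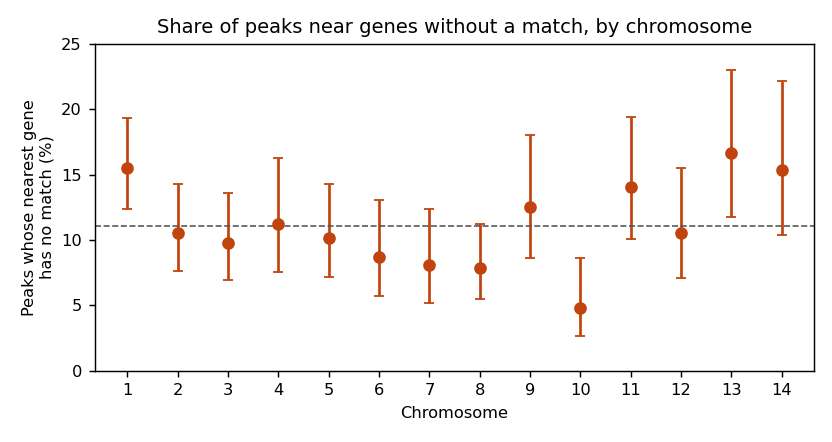
Share of each chromosome's peaks that were near a gene without a match, in percent (vertical axis), for chromosomes 1 to 14 (horizontal axis). Points are shares with Wilson 95% intervals and the dashed line is the share over all peaks; chromosome 10 is lowest at 4.83% and chromosome 13 highest at 16.7%.

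Where the next peak lay within 10 kb, it mostly had the same nearest gene, in both groups. At any distance, the next peak was that of a matched gene for 219 of 383 unmatched peaks. Another peak lay within 10 kb of 121 of 383 unmatched peaks, 31.6% (27.1% to 36.4%), against 35.7% (34.0% to 37.4%) of matched peaks. The next peak had the same nearest gene in 112 of these 121 unmatched and in 1038 of these 1099 matched cases. Of the 9 unmatched peaks whose next peak within 10 kb had another gene, that gene was matched in 6. Within 1 kb the next peak was never that of a matched gene, and the smallest such gap was 1274 bp. That was between the promoter peaks of M.coruscus_chr11_2588 and M.coruscus_chr11_2589, which were 5.24-fold and 5.64-fold, the second gene matching an uncharacterized ant protein. Of the other 5 neighbours, which were looked up after their values were seen, 3 had a Swiss-Prot name. An intergenic peak of M.coruscus_chr13_0075 (5.24-fold) was 2983 bp from a peak of 12.3-fold downstream of a gene that matched the E3 ubiquitin ligase TRIM33 in Swiss-Prot and TRIM71 in KEGG and TrEMBL. A peak upstream of M.coruscus_chr1_3068 (4.43-fold) was 5487 bp from an intron peak of 8.87-fold in a gene matching an oligoadenylate synthase, an enzyme of antiviral defence in mammals. A peak upstream of M.coruscus_chr1_0176 (4.68-fold) was 5801 bp from an exon peak of 3.08-fold in a gene matching an orexin receptor, a receptor for neuropeptides in mammals.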

How the data were processed

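The authors trimmed reads with Trimmomatic 0.36, aligned them with Bowtie2 2.5.1 to an unpublished *M. coruscus* genome keeping unique hits, called peaks with MACS3 3.0.0a7 against the input, and annotated them. Total reads per library were not in the deposited table. The deposited pileup is a signal of ChIP fragments at the summit, the deposited fold enrichment is a ratio to the local background, and q values are deposited as −log10 values (lowest −log10 q 1.32). Other deposited columns give positions and distances in bp, region class, nearest gene and database matches. How duplicate reads were handled is not stated.

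The ChIP and input libraries were told apart by their titles. Peaks were split by whether any of the 4 database columns held an entry. For the 50 unmatched and 506 matched genes with several peaks, summits and distances gave 1 TSS and strand within 1 bp. Shares have Wilson, differences Newcombe and medians order-statistic 95% intervals. These were tested on simulated independent values at the full sizes of the peak groups. That cannot show how the intervals hold for peaks grouped by gene, tied values or small classes. The peaks named were the 10 highest by fold enrichment, the 5 highest by pileup, length and background, leading promoter(1k), exon and downstream peaks, and up to 10 genes with 3 or more peaks, and others are marked in the text. Members, lists and rules were chosen with earlier results of these data known. The reference gene table is of another assembly and shares 0 identifiers, so it was not used, and no sequence is shown. Work was done in Python 3.11.15 with pandas 2.3.3, NumPy 2.4.6, SciPy 1.17.1, statsmodels 0.14.6 and Matplotlib 3.10.9.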

Additional observations from a re-analysis of the deposited data

How the results depend on the processing

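The intron, intergenic, exon and upstream shares of unmatched peaks, their distance to the TSS and the share of genes with more than 1 peak stayed within their 95% intervals under each alternative tried, and on the same side of the matched value. The gap in genes with more than 1 peak varied in size. It was 18.4% (13.9% to 24.0%) against 20.0% at a −log10 q of at least 3, and 14.0% (9.93% to 19.4%) against 18.2% at a fold of at least 4. Both of these intervals held the matched value. Without the 10% of peaks highest in background it was 14.2% (10.5% to 18.9%) against 20.9%, and the interval did not. The intron share ran from 18.7% to 22.4% and the intergenic share from 61.3% to 67.1%. The number of unmatched peaks was 652 when TrEMBL was ignored, 611 when uncharacterized TrEMBL names counted as no match, and 246 at a fold enrichment of at least 4. The promoter share was 4.17% with promoter(1k) alone, and it was above the matched share under each of 9 alternatives. These alternatives share many of their peaks, so they are not separate evidence. For the 3 promoter classes at a −log10 q of at least 3, it was 7.96% (5.36% to 11.7%) against 6.75%, an interval that held the matched share. With 1 peak per gene it was 11.1% (8.02% to 15.2%) against 7.46%, an interval that did not. At a −log10 q of at least 3 the median length was 345 bp, above the 338 bp of matched peaks, and the median fold was 4.91 against 5.18. At a fold of at least 4 the median fold was 5.18 against 5.24, and the median background was 2.78, equal to that of matched peaks. Without the 10% of peaks highest in background the median pileup was 15, the median fold 4.68 and the median background 3.04. A filter on fold or background shifts the median of that same measure by its own action. Peak length kept its order against matched peaks in 6 of 7 alternatives. Median pileup kept its order in 2 of 7 and equalled that of matched peaks in the others. The cause was not tested. Leaving out a replicate and a paired analysis were not possible because each group had 1 library. Most peaks rest on few fragments, with a median of 17, which limits the precision of single folds.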

Other observations

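Unmatched genes with peaks sometimes followed each other along a chromosome. There were 9 pairs with consecutive gene numbers, among them M.coruscus_chr3_0302, M.coruscus_chr3_0303 and M.coruscus_chr3_0304, which form a run, and M.coruscus_chr4_1856 and M.coruscus_chr4_1857, whose promoter peaks of 7.06-fold and 2.60-fold were 16001 bp apart. Of the 295 unmatched genes on chromosomes, 57 were next in number to a matched gene with a peak. One of these, M.coruscus_chr12_1895, had the lowest fold enrichment of the unmatched peaks, 1.62-fold with 175 fragments over a background of 109, and the matched gene beside it, M.coruscus_chr12_1896, which matches the histone methyltransferase SETD8, was nearest to 8 peaks of at most 4.38-fold. On sequences not placed on a chromosome, 3 of 7 peaks were unmatched. Consecutive gene numbers were not counted for matched genes. The counts above therefore cannot show whether unmatched genes with peaks follow each other more often than other genes with peaks. These are values only, and no explanation was tested.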
